A study of Mus musculus with 9 samples.

Results

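The genes examined here encode the machinery that copies DNA in S phase. They were taken as the transcript clusters annotated to a fixed list of 37 gene symbols, and 36 of the 37 were measured among the 21072 transcript clusters (probe sets that cover a whole gene) in the data. The cluster that covers Mcm7 carries several symbols and was not used. The starting cells were bone marrow cells of C57BL/6 mice, 8 weeks old and female, that had received 5-fluorouracil at 150 mg per kg 6 days before harvest. Cells were enriched with magnetic beads as lineage-negative, Sca-positive and Kit-positive, then infected with retroviral particles, and GFP-positive cells were sorted after 72 h of culture. The 3 groups differed in the retrovirus, which carried EGFP alone (the empty vector, MIE), GATA2 wild type, or GATA2 with the substitution R396Q. GATA2 is a DNA-binding factor needed by blood progenitors, and here it came from a retroviral vector on top of the cells' own gene. Each group had 3 arrays, 9 in all, and all 3 groups shared the drug treatment of the mice, the infection and the culture.

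Replication begins when the origin recognition complex, Cdc6 and Cdt1 load rings of Mcm proteins on DNA in G1, a step called licensing. At the start of S phase the rings are turned into active helicases by Cdc45, the GINS complex and Mcm10, after which polymerases, the sliding clamp and its loader copy the strands while histones and DNA methylation marks are restored behind the fork. Many of these genes are transcribed in late G1 and S phase under E2F factors, which the retinoblastoma protein holds back, so in dividing blood progenitors their level tends to follow the share of cells in cycle. In bulk RNA of this kind, fewer cells in S phase and less RNA per cell cannot be told apart.

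Sequences around the start sites were examined because members that are expressed together are known to share E2F sites. RefSeq windows of 250 bases before to 50 bases after an annotated start (GRCm38.p6) were held for 30 of the 36 measured genes, in 34 windows. The E2F type letters searched on both strands were TTTCCCGC, TTTCGCGC, TTTGCCGC and TTTGGCGC. They occurred in 13 of the 34 member windows (38.2%) and in 744 of the 32851 windows of all genes (2.26%). The member windows were richer in G and C, with a median of 61.5% against 52.7% over all windows. Among the 10284 windows of any gene whose G and C content lay between 53.4% and 65.7%, the interquartile range of the members, 3.54% held the letters. CCAAT was found in 52.9% of member windows and 37.4% of all windows. The GATA type letters AGATAA and TGATAA were found on either strand in 5.88% of member windows and 18.6% of all windows, or 9.52% of those within the same G and C range. The GATA type letters lay in the windows of Cdc45 and Fen1. These matches describe letters and are not measured binding sites.

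The matches of 7 members are printed below from 5′ to 3′ on the gene's strand, with 10 bases on either side. The E2F type letters are in capitals, except where a later match overlaps an earlier match. The lines show the chromatin genes Hells, Cdca7 and Uhrf1, the licensing genes Orc1, Mcm5 and Cdc6, and the polymerase gene Pola1. Hells lies on the plus strand at chr19:38930918-38930945, Cdca7 on the plus strand at chr2:72476138-72476165, Uhrf1 on the plus strand at chr17:56304118-56304145, and Orc1 on the plus strand at chr4:108579417-108579444. Mcm5 lies on the plus strand at chr8:75109346-75109373, Cdc6 on the plus strand at chr11:98908003-98908030, and Pola1 on the minus strand at chrX:93632276-93632303.
Hells: accaccgggtTTTCCCGCgaaagagaag
Cdca7: gcgtcccggcGCGGGAAAgccggtggcc
Uhrf1: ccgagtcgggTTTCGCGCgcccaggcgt
Orc1: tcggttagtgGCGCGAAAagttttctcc
Mcm5: cgccaagaacTTTCGCGCcaaaacgtcc
Cdc6: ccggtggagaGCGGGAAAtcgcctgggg
Pola1: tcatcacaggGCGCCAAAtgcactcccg

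Hells holds the letters as listed and Pola1 as their reverse complement. In Mcm5 the last capitals and the lower case bases after them also spell GCGCCAAA, the letters marked in Pola1. That overlapping match was not marked or given a position. The match began 62 bases before the annotated start in Hells and 138 bases before it in Pola1. The matches of Cdca7 and Orc1 began 71 and 27 bases before their starts. A longer upstream stretch is given for Cdca7 and Tyms. It was cut to bases outside the gene's RefSeq extent, so both stretches end short of the annotated start used above. Against the empty vector, Cdca7 was lower with wild type GATA2 and Tyms was higher with R396Q. With R396Q against wild type both were higher (log2 change 1.18 and 0.46). Other members varied: of those also called lower with wild type, Hells held the letters and Chaf1a did not. Pola1 held them and changed by -0.04. Whether the letters bear on these changes was not tested. The Cdca7 stretch is chr2:72476019-72476186 on the plus strand, with the same match in capitals. The Tyms stretch is chr5:30073646-30073825 on the minus strand and holds none of the E2F type letters.
Cdca7: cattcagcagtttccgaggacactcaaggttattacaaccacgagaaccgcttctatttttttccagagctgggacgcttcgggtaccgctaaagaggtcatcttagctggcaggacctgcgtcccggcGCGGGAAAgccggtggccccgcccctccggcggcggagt
Tyms: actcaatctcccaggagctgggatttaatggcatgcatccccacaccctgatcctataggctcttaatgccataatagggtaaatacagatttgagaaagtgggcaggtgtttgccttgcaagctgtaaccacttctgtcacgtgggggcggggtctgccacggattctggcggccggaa

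**Figure D1:**
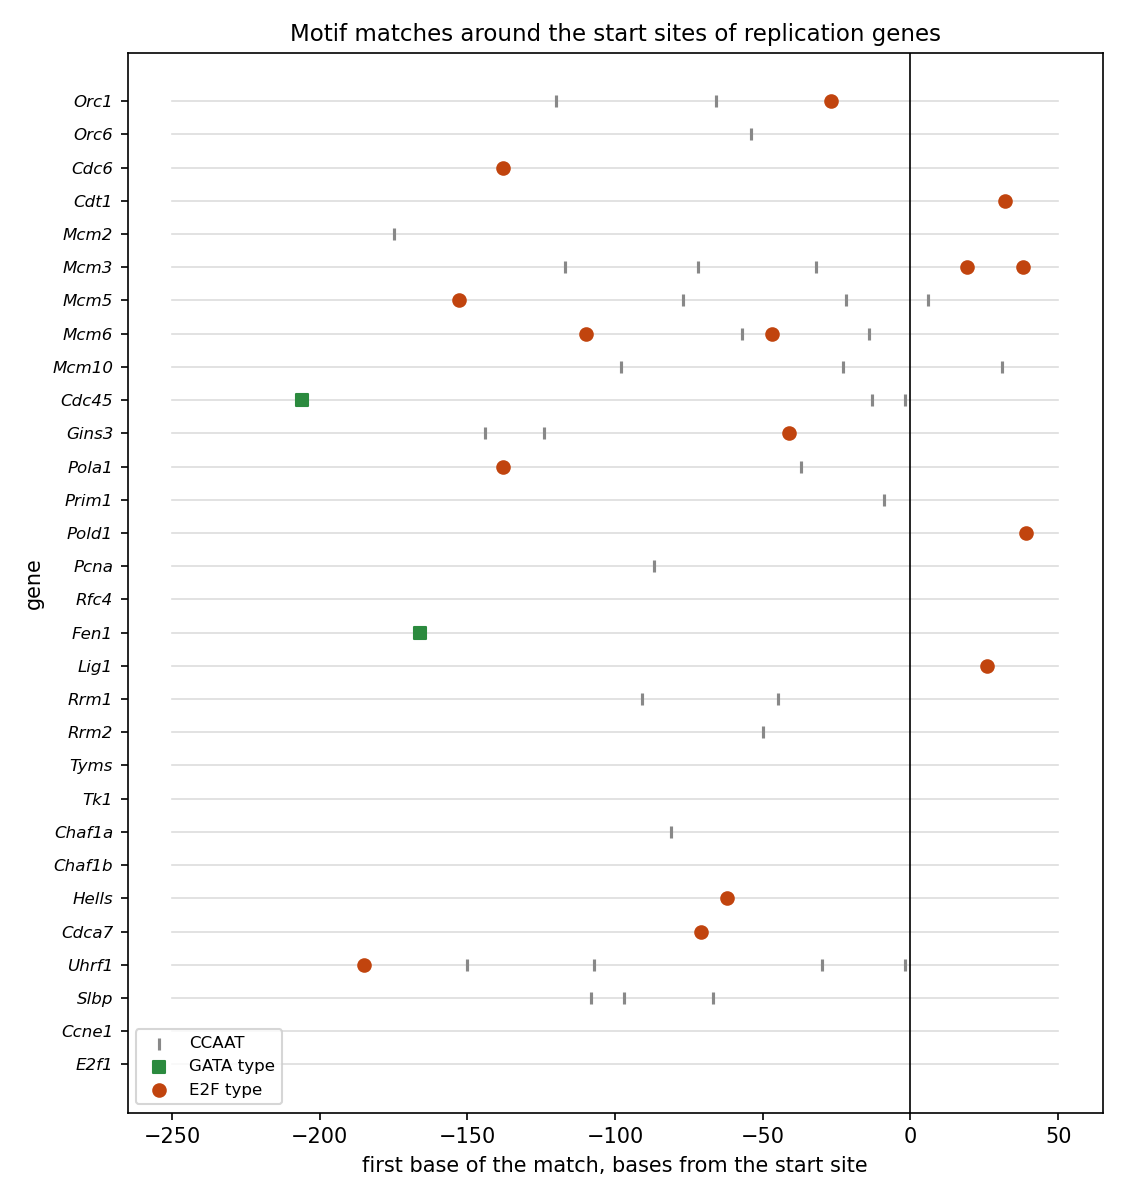
Position of motif matches in bases from the annotated start (0) for the 30 members with a window, 1 line per gene. Fen1 and Uhrf1 had 2 windows and Lig1 had 3, and their matches are drawn on 1 line, each from its own window's start. Circles are E2F type letters, squares GATA type letters and ticks CCAAT. A match that overlaps an earlier match of the same type is not drawn. E2F type letters were found in 13 of the 30 genes and GATA type letters in 2.

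Values are log2 signals, so that 1 unit is a 2-fold difference, and levels are compared only within a gene because probes differ between genes. All 36 members lay above the array's median signal (6.06 to 6.19) on all 9 arrays, and 31 lay above the upper quartile on all of them. Differences were tested with limma on all 21072 clusters, and a gene was called where the Benjamini-Hochberg adjusted p was under 0.05. Whether samples within a group had their own mice or cultures is not stated in the labels, so p-values measure only the spread between these samples. Arrays with the same replicate number deviated together, and a second fit with the number as a block is given for members whose call it changed and as counts for the lists of other genes. The comparisons share arrays, since both GATA2 groups were set against the same empty vector arrays.

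The transduced gene was checked first. Gata2 was 9.87, 9.67 and 9.65 on the empty vector arrays, 11.50, 11.24 and 10.94 with wild type, and 10.65, 10.72 and 10.53 with R396Q. The groups did not overlap, and Gata2 was lower with R396Q than with wild type by 0.59 on the log2 scale (limma adjusted p = 0.0633, or 0.0222 with the block). The labels do not give the species of the transduced cDNA, so the share of this signal that came from the vector and from the cells' own gene is unknown. Differences between the GATA2 groups below therefore stand beside a difference in Gata2 signal, whose part in them was not tested. Kit, used in the enrichment, and Cd34, a progenitor marker, lay above the array median on all 9 arrays, but both fell with wild type GATA2, Kit 7.02-fold and Cd34 24.8-fold. Kit also fell 3.5-fold with R396Q. Procr lay between 4.98 and 5.34, below the median, and Flt3, Mecom and Hlf did not pass the median on every array. Of 8 stem and progenitor markers 1 rose and 3 fell with wild type (2 and 4 with the block), and with R396Q 1 rose (Slamf1, 9.54-fold, limma adjusted p = 0.0188 and up to 0.0868 with 1 array left out) and 1 fell (Kit). Their mean log2 level was 8.48 to 8.76 with the empty vector, 7.70 to 7.85 with wild type and 8.19 to 8.72 with R396Q. Marker genes of several other blood cell types moved with wild type GATA2, and some also with R396Q. Over all clusters 8.99% were called with wild type and 1.23% with R396Q against the empty vector (17.4% and 3% with the block). The mean log2 level of 12 erythroid markers was 5.99 to 6.25 with the empty vector, 8.63 to 9.53 with wild type (8 of 12 higher) and 6.08 to 6.38 with R396Q. That of 8 megakaryocyte markers was 7.61 to 8.28, 10.08 to 10.70 (6 of 8 higher) and 7.92 to 8.54 (0 of 8 higher, 1 with the block, Itga2b) in the same order. That of 11 mast cell and basophil markers was 8.55 to 9.68, 11.23 to 12.28 (8 of 11 higher) and 9.79 to 10.20 (0 of 11 higher, 2 with the block, Cpa3 and Slc18a2). The mean of 12 neutrophil markers was 11.11 to 13.93, 7.17 to 9.85 (5 of 12 lower, 10 with the block) and 9.91 to 13.11 (1 of 12 lower, Mmp8, with a limma adjusted p of 0.0315 and up to 0.0977 with 1 array left out, and 2 lower with the block). That of 9 monocyte and macrophage markers was 8.40 to 9.91, 6.81 to 7.30 (5 of 9 lower) and 6.68 to 7.14 (4 of 9 lower, 5 with the block). The 9 lymphoid markers had a mean of 5.26 to 6.15 over all arrays, with Cd3e and Cd4 below the lower quartile on all 9, and none was called without the block (an unadjusted p was under 0.05 for 0, 0 and 2). Under the block 1 was higher (Cd79b) and 1 lower (Il7r) with R396Q than with wild type. The part of these changes in cell makeup in the results for replication genes was not tested.

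As a set, the replication genes were called at shares near those of all clusters. With wild type GATA2 against the empty vector, 3 of 36 members fell and none rose (8.33% of members, against 8.99% of all clusters called and 4.35% called lower). With the block 6 fell and 1 rose (19.4%, against 17.4% of all clusters). With R396Q against the empty vector 1 member rose (2.78%, against 1.23% of all clusters called and 0.66% called higher), and with the block again 1 (against 3% of all clusters). With R396Q against wild type 3 rose (8.33%, against 5.75% called and 2.67% called higher), and with the block 5 rose and 1 fell (16.7%, against 13.1%). The members are bright genes. Among the 6833 clusters at least as bright as the dimmest member, 14.1%, 1.7% and 9.28% were called in the 3 comparisons, and 31.4%, 5.06% and 24.2% with the block.

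The median member changed little. It was -0.08 for wild type against the empty vector, -0.04 for R396Q against the empty vector and 0.09 for R396Q against wild type, beside -0.01, -0.01 and 0.00 over all clusters. Single members ranged from -1.47 to 0.43, from -0.48 to 0.75 and from -0.48 to 1.18 in the same order. With wild type GATA2, 2 members differed by over 2-fold from the empty vector (5.82% of all clusters did), both of them lower. The groups did not overlap for 13 members with wild type against the empty vector (36.1%, against 22.6% of all clusters), for 6 with R396Q against the empty vector (16.7%, against 14.1%) and for 9 with R396Q against wild type (25%, against 20.6%). The median 95% interval of a member reached 0.33 log2 units to either side (0.21 with the block). These intervals are not adjusted for the number of clusters tested, so they do not mark the smallest difference that could be called. With 3 arrays a group, larger differences also went uncalled, such as -0.72 for Gins1 and -0.62 for Cdc45 with wild type (limma adjusted p = 0.076 and 0.22).

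**Figure D2:**
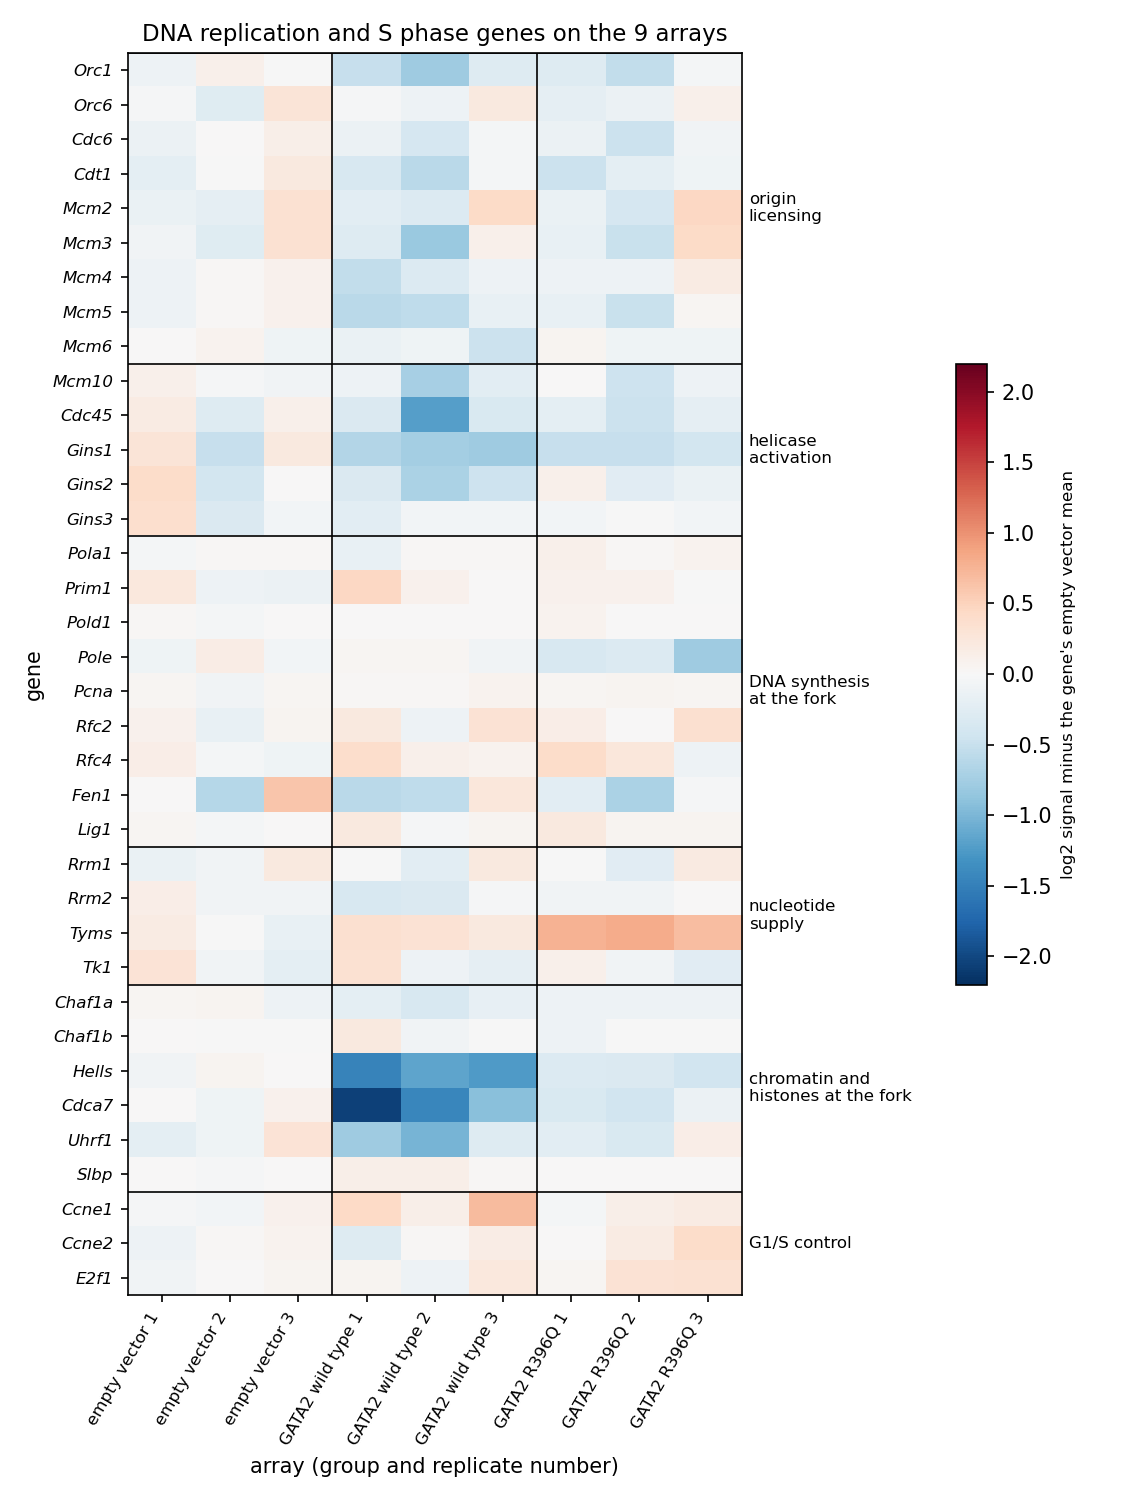
Log2 signal of the 36 measured replication genes (rows, ordered by role) on the 9 arrays (columns), each minus that gene's empty vector mean; blue is lower and red is higher. Hells and Cdca7 are the darkest blue rows on the 3 wild type arrays, and Tyms is red on the 3 R396Q arrays.

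The clearest differences lay among the 6 genes that handle chromatin at the fork, of which 3 fell with wild type GATA2 and 2 were higher with R396Q than with wild type. Hells, a chromatin remodeller needed for DNA methylation of repeats, was 11.81, 11.95 and 11.89 with the empty vector, 10.42, 10.73 and 10.63 with wild type, and 11.59, 11.56 and 11.46 with R396Q. All wild type arrays lay below all others, and the R396Q arrays lay between the other groups without overlap. Hells fell 2.45-fold with wild type (log2 change -1.29, SE 0.08, n = 3 a group, limma adjusted p = 0.000393). Against wild type, R396Q was 1.92-fold higher (0.94, SE 0.08, limma adjusted p = 0.0018), and against the empty vector the difference of -0.35 did not pass (limma adjusted p = 0.133). Both calls for Hells held with each of the 9 arrays left out in turn.

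Cdca7, the zinc finger protein that recruits Hells to chromatin, was 12.08, 11.98 and 12.17 with the empty vector, 10.02, 10.65 and 11.16 with wild type, and 11.74, 11.66 and 11.95 with R396Q. The groups did not overlap, and the wild type arrays were spread over more than 1 log2 unit. It fell 2.77-fold with wild type (-1.47, SE 0.26, limma adjusted p = 0.0167), a call lost without empty vector replicate 1 or replicate 3 (adjusted p up to 0.0601). With R396Q it was 2.26-fold higher than with wild type (1.18, SE 0.26, limma adjusted p = 0.0495). That call held only with wild type replicate 1 or 3 left out (adjusted p up to 0.147 without any other array). The difference between R396Q and the empty vector was -0.29 with a 95% interval of -0.91 to 0.33 and did not pass (limma adjusted p = 0.732).

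Uhrf1, which reads hemimethylated DNA behind the fork and brings the maintenance methyltransferase there, was 11.76, 11.88 and 12.26 with the empty vector, 11.19, 10.95 and 11.68 with wild type, and 11.73, 11.64 and 12.11 with R396Q. Within each replicate number the wild type array was the lowest of the 3, and the wild type arrays overlapped those of R396Q but not those of the empty vector. The change of -0.70 (SE 0.23) with wild type passed only with the block (limma adjusted p = 0.00655, against 0.125 without it), as did the difference of 0.55 between R396Q and wild type (0.0154 against 0.268). Chaf1a, the large subunit of the histone chaperone CAF-1, was 11.02, 11.04 and 10.87 with the empty vector, 10.77, 10.63 and 10.79 with wild type, and 10.87 on all 3 R396Q arrays. All wild type arrays lay below the other 6. It fell 1.19-fold with wild type (-0.25, SE 0.06, limma adjusted p = 0.0498), a call at the threshold that did not hold with the block (0.0653). It held with empty vector replicate 3 left out but with none of the other 8 arrays left out (up to 0.134). The 3 equal R396Q values are part of a pattern of repeated values in these data: 18 of the 36 members had 9 distinct values. Of the remaining 2 genes of this role, Chaf1b (the CAF-1 middle subunit) changed by 0.04 and Slbp (the histone mRNA binding protein) by 0.09 with wild type, and neither passed.

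**Figure D3:**
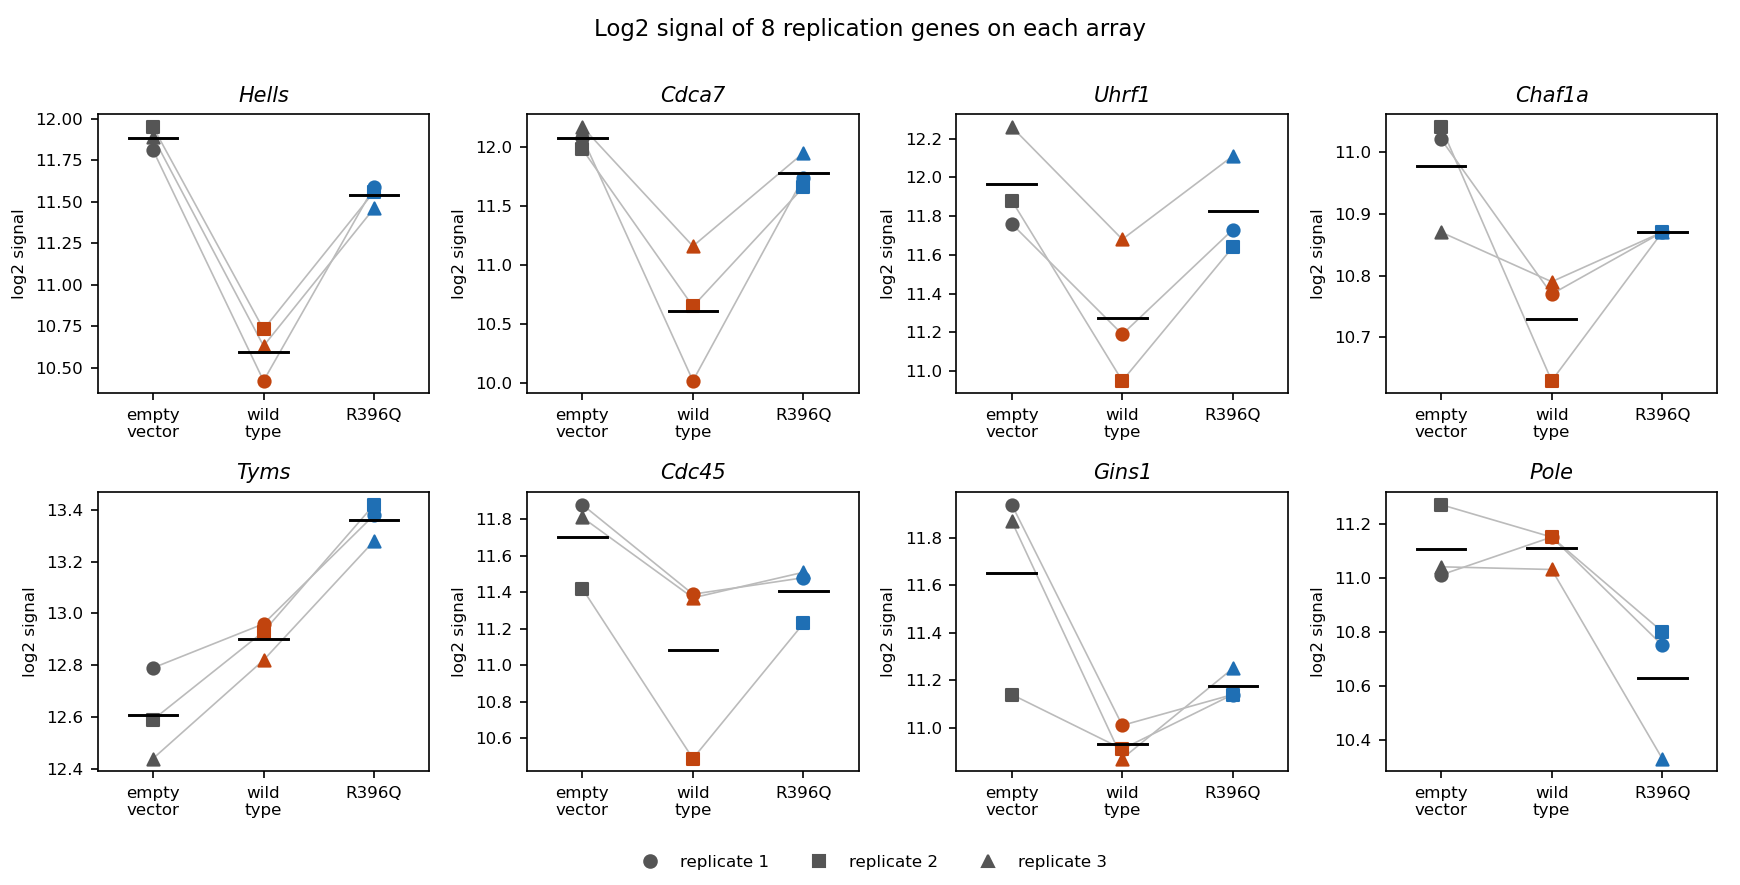
Log2 signal (y axis, a separate scale for each gene) on each array for 8 replication genes in the 3 groups, with bars at group means and grey lines joining arrays of 1 replicate number. Hells and Cdca7 are lower on all 3 wild type arrays than on all others, while Tyms is higher on all 3 R396Q arrays than on all others.

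Among the 4 genes of nucleotide supply, Tyms was the only one called. Tyms encodes thymidylate synthase, which makes the thymidine nucleotide for DNA and is the enzyme that 5-fluorouracil blocks; mice of all 3 groups had received that drug. It was 12.79, 12.59 and 12.44 with the empty vector, 12.96, 12.93 and 12.82 with wild type, and 13.38, 13.42 and 13.28 with R396Q. The groups did not overlap, with R396Q the highest and the empty vector the lowest. Tyms rose 1.68-fold with R396Q (0.75, SE 0.09, 95% interval 0.53 to 0.97, limma adjusted p = 0.017). The call was lost without any 1 of the R396Q arrays (adjusted p up to 0.0819). Against wild type, R396Q was 1.37-fold higher (0.46, limma adjusted p = 0.0352), a call that held only with empty vector replicate 1 or 3 left out (up to 0.121 without any other array). The change of 0.30 with wild type passed only with the block (limma adjusted p = 0.0284, against 0.106). The other nucleotide genes did not pass in any comparison. For Rrm1, the large subunit of ribonucleotide reductase, wild type differed from the empty vector by -0.01 (95% interval -0.39 to 0.37, or -0.19 to 0.17 with the block). The small subunit Rrm2 differed by -0.24 and thymidine kinase Tk1 by 0.01.

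The helicase activation genes had lower means with wild type GATA2 in all 5 cases, with a median change of -0.49, but none passed without the block (2 had an unadjusted p under 0.05). Gins1, a GINS subunit, was 11.94, 11.14 and 11.87 with the empty vector, 11.01, 10.91 and 10.87 with wild type, and 11.14, 11.14 and 11.25 with R396Q. Empty vector replicate 2 lay at the level of the R396Q arrays, away from the other empty vector arrays. Its change with wild type was -0.72 (SE 0.20, limma adjusted p = 0.076), and 0.00124 without that array. Against the empty vector, R396Q differed by -0.48 (limma adjusted p = 0.411), and the p was 0.00913 without empty vector replicate 2. Cdc45, which joins the Mcm ring and GINS in the active helicase, was 11.88, 11.42 and 11.81 with the empty vector, 11.39, 10.49 and 11.37 with wild type, and 11.48, 11.23 and 11.51 with R396Q. The wild type arrays lay below the empty vector arrays, the closest pair being 11.39 and 11.42. The change of -0.62 (SE 0.26) passed only with the block (limma adjusted p = 0.0389, against 0.22).

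Gins2, another GINS subunit, was 10.80, 10 and 10.40 with the empty vector, 10.09, 9.70 and 9.95 with wild type, and 10.51, 10.15 and 10.25 with R396Q. The empty vector group overlapped both others, and the wild type array was the lowest within each replicate number. Its change of -0.49 passed only with the block (limma adjusted p = 0.0278, against 0.241). Mcm10, which stabilises the active helicase, changed by -0.36 with wild type (limma adjusted p = 0.314), and Gins3 by -0.11. For Mcm10 the wild type arrays lay below the empty vector arrays, and the R396Q arrays overlapped both groups. With R396Q against wild type all 5 helicase genes had higher means (median 0.25) and none passed with or without the block (0 had an unadjusted p under 0.05).

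Of the 9 measured licensing genes none was called without the block (3 had an unadjusted p under 0.05), and 8 had lower means with wild type GATA2 (median -0.32). Orc1, the largest subunit of the origin recognition complex, was 8.52, 8.74 and 8.62 with the empty vector, 8.12, 7.85 and 8.35 with wild type, and 8.35, 8.08 and 8.58 with R396Q. Wild type and empty vector arrays did not overlap, but the change of -0.52 (SE 0.16) did not pass (limma adjusted p = 0.112). Mcm4 was 13.77, 13.91 and 13.97 with the empty vector, 13.34, 13.58 and 13.78 with wild type, and 13.78, 13.78 and 14.07 with R396Q. Wild type was lowest within each replicate number but overlapped the other groups, and the change of -0.32 passed only with the block (limma adjusted p = 0.032, against 0.215), as did the difference of 0.31 between R396Q and wild type (0.0424 against 0.287).

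The other measured subunits of the Mcm ring did not pass in any comparison. Mcm5 changed by -0.44 with wild type (95% interval -0.84 to -0.05, or -0.72 to -0.17 with the block), Mcm3 by -0.33 (-1.08 to 0.42, or -0.55 to -0.12) and Mcm6 by -0.24 (-0.49 to 0.01, or -0.44 to -0.04). Their limma adjusted p-values were 0.17, 0.604 and 0.251, and 0.0512, 0.0551 and 0.111 with the block. Mcm2 differed by -0.03, with an interval of -0.71 to 0.65, or -0.19 to 0.13 with the block. Mcm2 differed more between replicate numbers than between groups. The arrays numbered 3 read 13.90, 13.98 and 14.02 in the 3 groups, whereas the other 6 arrays lay between 13.18 and 13.41. The arrays numbered 3 also had the lowest mean of the neutrophil markers in each group, at 11.11, 7.17 and 9.91; its part in the Mcm2 spread was not tested. The loading factors Cdt1 and Cdc6 changed by -0.33 and -0.18 with wild type, and Orc6 by 0.03, and none of them passed.

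Genes of DNA synthesis at the fork were close to level between the empty vector and wild type, with a median change of 0.04 over 9 genes and no call with or without the block (0 had an unadjusted p under 0.05). Pcna, the sliding clamp, was 15.35, 15.23 and 15.35 with the empty vector, 15.33, 15.33 and 15.39 with wild type, and 15.35, 15.37 and 15.36 with R396Q. The groups overlapped, and the 95% interval of the wild type change was -0.05 to 0.13. The polymerase subunits Pola1 and Pold1 changed by -0.04 and 0.02, though both had few distinct values (5 and 4 over the 9 arrays). The clamp loader subunits Rfc2 and Rfc4 changed by 0.14 and 0.19, the primase subunit Prim1 by 0.18 and the ligase Lig1 by 0.08. Fen1, the flap endonuclease of Okazaki fragments, varied most within groups (SE 0.38) and its change of -0.30 had an interval of -1.19 to 0.59, or -0.72 to 0.13 with the block.

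Pole, the catalytic subunit of the leading strand polymerase, was the exception within this role. It was 11.01, 11.27 and 11.04 with the empty vector, 11.15, 11.15 and 11.03 with wild type, and 10.75, 10.80 and 10.33 with R396Q. All R396Q arrays lay below the other 6, which overlapped. The difference of -0.48 (SE 0.13) from wild type passed only with the block (limma adjusted p = 0.0379, against 0.1), and that of -0.48 from the empty vector did not pass with it (0.0818) or without it (0.193).

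The G1/S control genes were not called in any comparison with or without the block (1, 0 and 1 of the 3 had an unadjusted p under 0.05). Ccne1, a cyclin that drives entry into S phase with Cdk2, was 10.96, 10.93 and 11.09 with the empty vector, 11.44, 11.13 and 11.69 with wild type, and 10.95, 11.13 and 11.18 with R396Q. Wild type arrays lay above the empty vector arrays, but the change of 0.43 (SE 0.14) did not pass (limma adjusted p = 0.124). The second E-type cyclin, Ccne2, changed by -0.03, and E2f1, the activator of many of these genes, by 0.07 with wild type and 0.23 with R396Q.

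**Figure D4:**
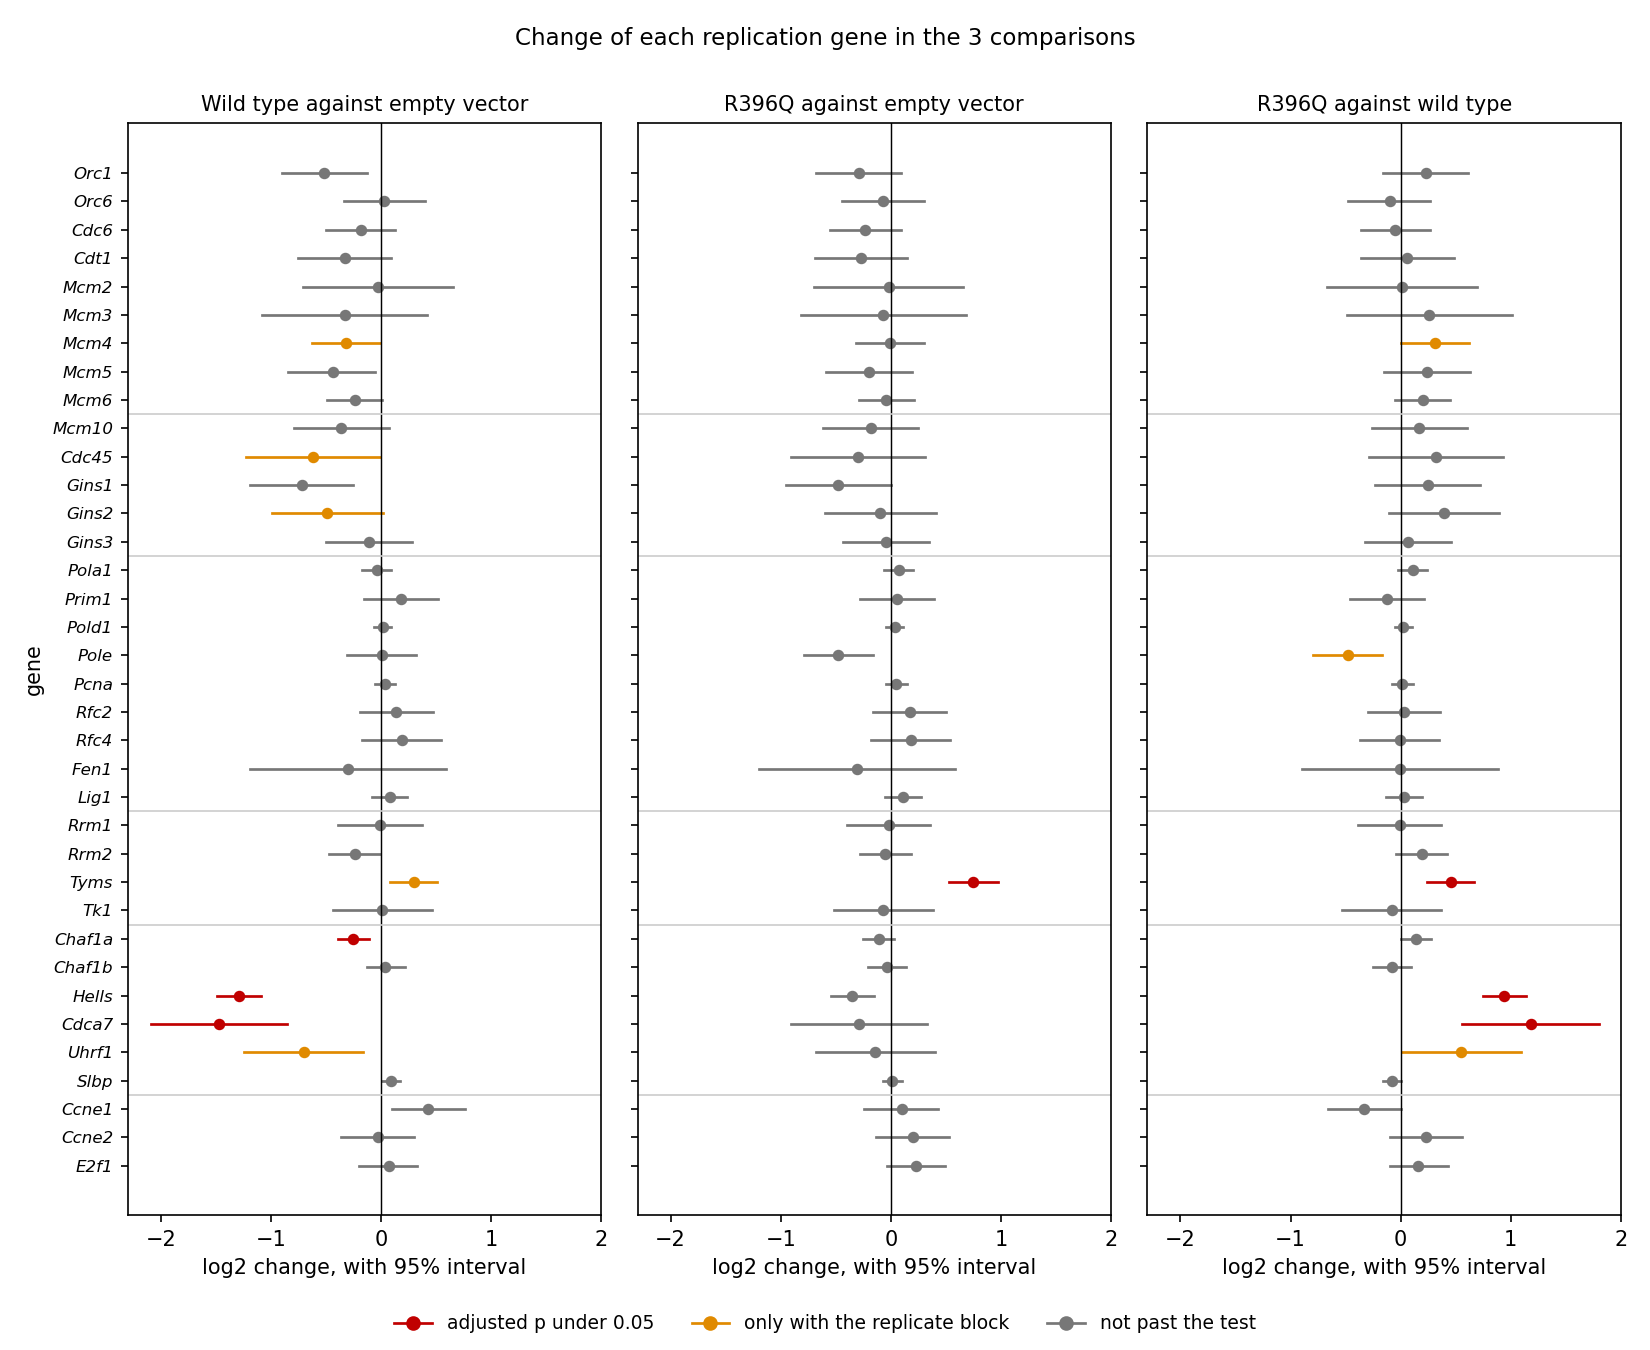
Log2 change of each of the 36 genes (rows) with its 95% interval from limma in the 3 comparisons, with a vertical line at 0. Red marks an adjusted p under 0.05 and orange genes that passed only with the replicate block; with wild type against the empty vector the 3 red genes are Chaf1a, Hells and Cdca7, and with R396Q against the empty vector Tyms is the only red gene.

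Genes around this set were counted in lists of the same pathways. Over all clusters 8.99%, 1.23% and 5.75% were called in the 3 comparisons, and 17.4%, 3% and 13.1% with the block. Among the 6833 clusters at least as bright as the dimmest member the shares were 14.1%, 1.7% and 9.28%, and 31.4%, 5.06% and 24.2% with the block. Of 50 other measured replication genes, 2 fell with wild type GATA2, 1 fell with R396Q and 1 was higher with R396Q than with wild type. These were 4%, 2% and 2% of the list (8%, 2% and 8% with the block), and the median changes were -0.11, 0.04 and 0.12. With the block 4 fell with wild type (Timeless and Nasp were added), and 3 were higher and 1 lower with R396Q than with wild type (Topbp1 and Nasp were added as higher and Orc2 as lower). Mcmbp, which binds the Mcm proteins, was 12.13, 12.00 and 11.86 with the empty vector, 11.39, 11.43 and 11.32 with wild type, and 11.90, 11.83 and 11.95 with R396Q. The wild type arrays lay below all others, while the other groups overlapped. It fell with wild type by 0.62 on the log2 scale (limma adjusted p = 0.00344) and was higher by 0.51 with R396Q than with wild type (0.00951). Topbp1, a scaffold for helicase activation, fell by 0.19 with wild type (limma adjusted p = 0.0269), and Cdc7, the kinase that fires origins, fell by 0.33 with R396Q (0.0191). The Topbp1 call was lost without empty vector replicate 2 or 3, wild type replicate 1 or 2, or R396Q replicate 3 (adjusted p up to 0.0779), and the Cdc7 call without empty vector replicate 1, wild type replicate 3, or R396Q replicate 1 or 2 (up to 0.085).

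Regulators of G1/S were called in both directions. Of 23 E2F, Rb and G1/S regulators, 5 rose and 4 fell with wild type, none was called with R396Q against the empty vector (5 had an unadjusted p under 0.05, and 1 passed with the block), and 2 were higher and 3 lower with R396Q than with wild type. With the block 6 rose and 7 fell with wild type, and 4 were higher and 5 lower with R396Q than with wild type. The called share was 39.1% with wild type and 21.7% for R396Q against wild type, beside 8.99% and 5.75% of all clusters. The block gave 56.5% and 39.1%, beside 17.4% and 13.1%. Among the bright clusters 14.1% and 9.28% were called, and 31.4% and 24.2% with the block. Rb1, the retinoblastoma protein that restrains E2F, was 11.04, 10.91 and 11.06 with the empty vector, 12.66, 12.40 and 12.57 with wild type, and 11.28, 11.33 and 11.20 with R396Q. It rose 2.91-fold with wild type (limma adjusted p = 0.000182) and was lower by 1.27 log2 units (-1.27) with R396Q than with wild type (0.000435). E2f8, a repressor of E2F targets, rose by 0.96 with wild type (limma adjusted p = 0.00669), and Myc, a driver of cell growth, fell by 1.29 (0.00733). With R396Q against wild type, E2f8 differed by -0.70 (limma adjusted p = 0.0287, up to 0.095 with 1 array left out, and held only without empty vector replicate 1 or 3 or wild type replicate 3) and Myc by 1.29 (0.0101). Tfdp2, a partner of E2F proteins on DNA, rose by 0.50 with wild type (limma adjusted p = 0.0227), a call lost without replicate 1 or 2 of either group (up to 0.0634). Its difference of 0.44 with R396Q did not pass (limma adjusted p = 0.102). Cdk4, the G1 kinase that acts on the retinoblastoma protein, was higher by 0.43 with R396Q than with wild type (limma adjusted p = 0.0225), a call lost without wild type replicate 1 or 2 or R396Q replicate 2 or 3 (up to 0.069). Cdk4 was also called lower with wild type than with the empty vector. It was 15.06, 15.06 and 15.21 with the empty vector, 14.67, 14.80 and 14.86 with wild type, and 15.12, 15.18 and 15.33 with R396Q.

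With wild type, 14.3% of CDK inhibitors, 4.55% of fork repair genes and 13.6% of G2 and mitosis genes were called, beside 8.99% of all clusters. The block gave 28.6%, 22.7% and 50%, beside 17.4%. Among the clusters at least as bright as the dimmest member 14.1% were called, and 31.4% with the block. Of 7 CDK inhibitors, Cdkn1a (p21) was the only one called without the block. With it, Cdkn2b was also higher with wild type than with the empty vector, and Cdkn2d lower with R396Q than with wild type. Cdkn1a was 13.91, 13.66 and 14.17 with the empty vector, 15.49, 15.31 and 15.81 with wild type, and 14.38, 14.64 and 14.66 with R396Q. The groups did not overlap, and wild type was the highest. Cdkn1a rose 3.07-fold with wild type (limma adjusted p = 0.00254), and R396Q differed from wild type by -0.98 (0.0229) and from the empty vector by 0.64, which did not pass (0.176). The Cdkn1a call between R396Q and wild type was lost without wild type replicate 1 or 3 or any R396Q array (limma adjusted p up to 0.0844). Of 22 fork repair genes 1 rose with wild type, the helicase Blm (0.96, limma adjusted p = 0.0083), and its difference of 0.58 with R396Q passed only with the block (0.0209, against 0.14). With the block 4 fork repair genes (Brca2, Exo1, Fancd2 and Rad18) fell with wild type, beside the rise of Blm, and 1 (Fancd2) fell with R396Q. Against wild type, R396Q showed no call without the block (5 had an unadjusted p under 0.05) and with it 4 higher (Rad54l, Brca2, Exo1 and Atr) and 1 lower (Blm). These were 22.7% of the list, beside 13.1% of all clusters and 24.2% of the bright clusters with the block. Of 22 genes of G2 and mitosis, 2 rose with wild type (Top2a by 0.37 and Kif11 by 0.38) and 1 fell (Bub1, by 0.54), and with the block 8 rose and 3 fell. The Kif11 call was lost without any 1 of the empty vector or R396Q arrays (limma adjusted p up to 0.093). None of these 22 was called with R396Q against the empty vector or against wild type (limma; 5 and 1 had an unadjusted p under 0.05, and 1 and 2 passed with the block).

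**Figure D5:**
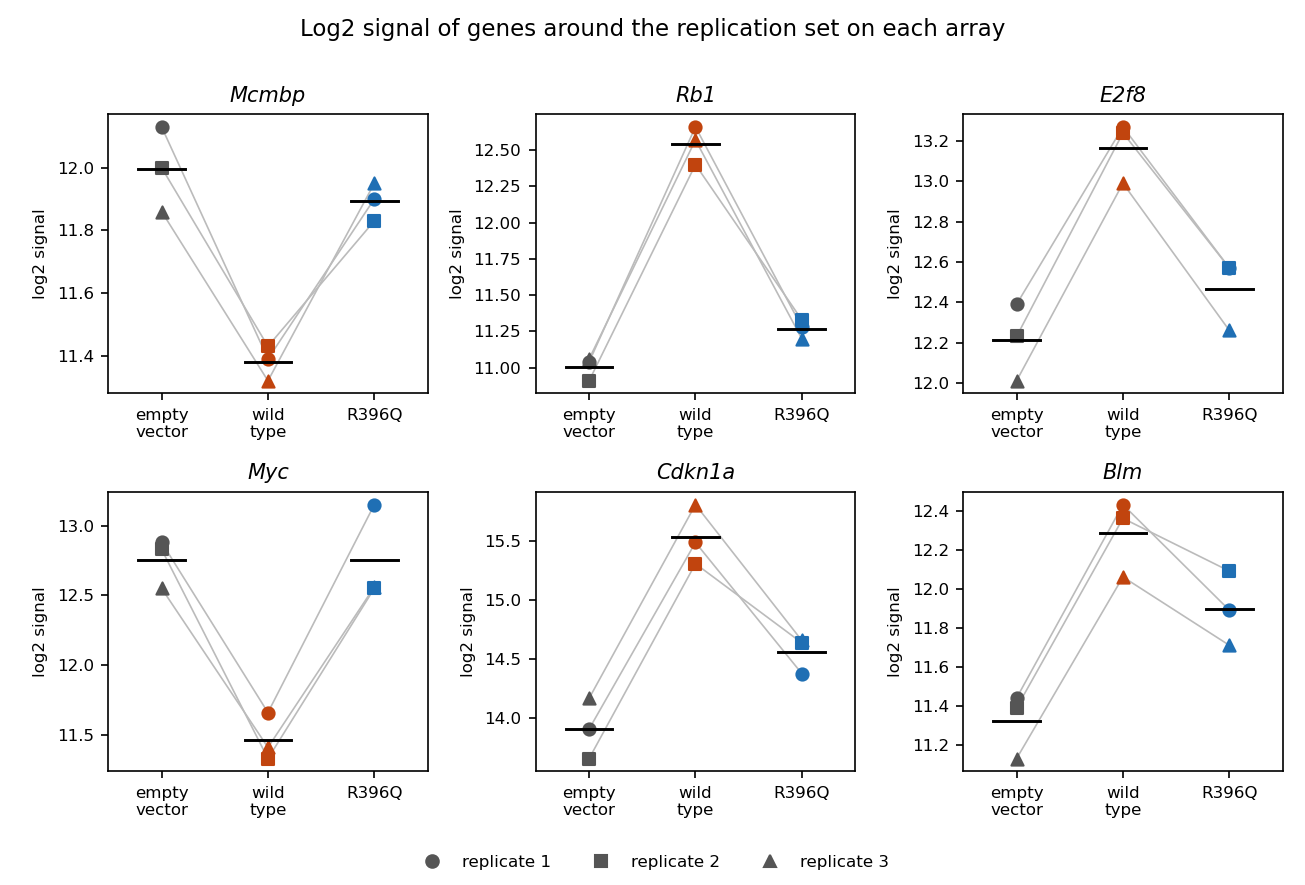
Log2 signal (y axis, a separate scale for each gene) of 6 genes around the replication set on each array in the 3 groups, with bars at group means and grey lines joining arrays of 1 replicate number. Rb1, E2f8, Cdkn1a and Blm are higher on all 3 wild type arrays than on all empty vector arrays, while Mcmbp and Myc are lower.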

How the data were processed

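Total RNA of 9 samples was hybridised to Affymetrix Mouse Exon 1.0 ST arrays, per the labels' protocols. The authors summarised and normalised probe signals with RMA in Affymetrix Expression Console, per the labels, and deposited log2 values. RMA normalises between arrays, so a change shared by most genes could be lost. Of 21072 clusters, 18992 carried 1 gene symbol, 1390 several and 690 none, and those with several were named for no gene. Differences were fitted with limma 3.58.1 in R 4.3.3 (1 mean per group, all 9 arrays, eBayes), with Benjamini-Hochberg adjustment over all clusters in each comparison. The script was tested on simulated data. Replicate numbers paired the samples: deviations from group means correlated at 0.451 to 0.693 over the 9 pairs with the same number and at -0.537 to -0.09 over the other 18. Deviations cancel out within a group, so positive values for the same number force negative ones on balance for the rest. The negative values are therefore no separate evidence of pairing. Values on every array are given for members called in any comparison with or without the block and for the member of each role with the smallest F-test p; of each pathway list, up to 4 called genes with the smallest p per comparison were eligible to be named. Pcna, Mcm2, list genes called only with the block and marker genes were named after their values were seen. The members, lists and tests were chosen with earlier results of these data known. Alternatives were another normalisation, weights, filters, the block and single arrays left out. For arrays, their number limits the precision.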

Additional observations from a re-analysis of the deposited data

How the results depend on the processing

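With the replicate block, which uses the pairing of the arrays, the members called rose from 3 to 7 for wild type against the empty vector and from 3 to 6 for R396Q against wild type, and the 1 call for R396Q against the empty vector was kept. Fitting only the 2 groups compared left 1 call for wild type against the empty vector and 0 for R396Q against the empty vector, with fewer samples in each fit. Quantile normalisation left 1 call for R396Q against wild type; the cause was not tested. With single arrays left out, 2 to 3, 0 to 2 and 1 to 2 members were called in the 3 comparisons, and the median changes ran from -0.15 to -0.06, from -0.09 to -0.01 and from 0.02 to 0.19. The median change for R396Q against the empty vector was -0.09 with array weights and -0.11 with quantile normalisation. That for R396Q against wild type was 0.14 with median subtraction and 0.04 with quantile normalisation. Keeping only genes with at least 6 distinct values, a choice made after seeing the data, gave -0.18 for wild type against the empty vector and 0.14 for R396Q against wild type. The fall of Chaf1a was lost under 7 alternatives besides single arrays (limma adjusted p 0.0515 to 0.158), and the change of Gins1 passed under 5 (0.0242 to 0.0497). The wild type call of Cdca7 and the R396Q call of Tyms against the empty vector were lost with only the 2 groups fitted (0.0757 and 0.0921), and with quantile normalisation those of Cdca7 and Tyms between R396Q and wild type were lost (0.053 and 0.0929), as was that of Cdca7 with only the 2 groups (0.148). Changes under these alternatives were counted for members called with or without the block and for the member of each role with the smallest F-test p. Of these 648 values, 592 kept their side of the threshold, 39 lost a call and 17 gained one. Without the alternatives only 3, 1 and 3 of these members were called in the 3 comparisons, so most kept values were members that stayed uncalled. The 39 losses all fell on those calls, 27 of them with a single array left out. A change of direction with no call in either fit was counted as kept. Pole with wild type, for example, went from 0.01 to -0.04 without empty vector replicate 1. Where either fit made a call, 0 reversed.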
